A study of Gallus gallus with 6 samples.

Results

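CHL1, CNTN6, ALCAM and MPZL2 encode adhesion proteins of the cell surface built on immunoglobulin-type domains. These 4 genes were found by name in the authors' deposited tables of changed genes, which hold 522 of the 15955 genes counted, and their levels were read in every library. They were thus selected on the authors' adjusted p and fold changes for the contrast between the groups. The libraries came from basilar papillas, the auditory sensory organ of the chicken (Gallus gallus) inner ear, taken on embryonic day 6 from ears whose otocyst, on the right side, was infected on embryonic day 3. The control group received RCAS(A), the parent virus, a replication-competent avian retrovirus, and the other group received RCAS(A)-Wnt9a, which adds Wnt9a to that virus, so both groups were infected. Each group held 3 biological replicates, numbered 2, 3 and 4 for RCAS(A) and 1, 2 and 3 for RCAS(A)-Wnt9a, and each was RNA from a pool of 24 papillas.

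Adhesion proteins of the immunoglobulin superfamily bind a like or unlike partner on a neighbouring cell or axon, and so take part in sorting cells, bundling axons and holding epithelia together. CHL1 is a transmembrane protein of the L1 family, which acts in neurite outgrowth and guidance. CNTN6 is a contactin, held in the membrane by a lipid anchor, and in the mouse cortex it works with CHL1 in orienting dendrites. ALCAM, known in the chicken as BEN, DM-GRASP or SC1, binds its own kind and marks prosensory patches of the avian otocyst. MPZL2 is a small protein related to myelin protein zero that was found in thymic epithelium, and its loss causes hearing impairment in humans and mice.

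The libraries held 19200235 to 23017150 counts, and 12133 genes had enough counts to be tested. Levels are in CPM, counts set relative to the size of each library after TMM scaling, which offsets differences in composition. WNT9A, carried by the second virus, was at 6.87 to 10.3 CPM in the RCAS(A) libraries and at 427 to 1340 CPM in the RCAS(A)-Wnt9a libraries, as the labels state, though counts cannot separate viral from endogenous transcripts. Papilla genes that the authors' tables name were measured in every library, among them SOX2, PAX2, FGF3 and OTOA. Only genes with enough counts to be tested were read. TECTB, another of them, was at just 0.72 CPM in RCAS(A)-Wnt9a replicate 1. Because the authors' tables had chosen the 4 adhesion genes on this very contrast, their differences between the groups are given as a description, without a test. For bulk RNA, a change in the number of expressing cells and a change in RNA per cell cannot be told apart.

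All 4 genes were higher in every RCAS(A)-Wnt9a library than in any RCAS(A) library. Such a rise without overlap occurred in 9.82% of all tested genes. Each of the 4 was also among the genes called higher at a Benjamini-Hochberg adjusted p under 0.05 in edgeR's quasi-likelihood test, as were 1.43% of all tested genes, and nothing is read from that count because the same contrast chose the members. The fitted increases were 2.37-fold for CNTN6, 1.90-fold for ALCAM, 1.82-fold for CHL1 and 1.36-fold for MPZL2. Their median log2 fold change was 0.89, beside -0.0037 over all tested genes. For the same reason nothing is read from this median or from the lack of overlap.

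CHL1 (ENSGALG00000007911) lies on chromosome 12 at 17219614 to 17297334 in the files' positions, which belong to the galGal4 build named in the submitters' processing notes. Its level was 43.8, 35.1 and 41.7 CPM in RCAS(A) replicates 2, 3 and 4. In RCAS(A)-Wnt9a replicates 1, 2 and 3 it was 78.8, 72.5 and 67.6 CPM. RCAS(A) replicate 3 was the lowest of the 6 libraries, and the lowest RCAS(A)-Wnt9a library stood 1.54 times above the highest RCAS(A) library. The group means were 40.2 ± 4.57 and 73.0 ± 5.66 CPM (SD, n = 3 each), a log2 fold change of 0.86 (SE 0.09).

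CNTN6 (ENSGALG00000007927, chromosome 12, 17553474 to 17631889) was the scarcest of the 4 genes and showed the largest fitted fold change among them. The RCAS(A) libraries held 3.54, 2.79 and 2.32 CPM in replicates 2, 3 and 4, which correspond to 82, 61 and 47 counts. With RCAS(A)-Wnt9a, replicates 1, 2 and 3 held 6.12, 7.17 and 7.32 CPM, or 136, 161 and 138 counts. The groups did not overlap, and even the closest libraries of the groups differed 1.73-fold. Means were 2.88 ± 0.62 and 6.87 ± 0.65 CPM (SD, n = 3 each), with a log2 fold change of 1.24 (SE 0.19), the widest error of the 4 genes.

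ALCAM (ENSGALG00000015348, chromosome 1, 85893283 to 86010821) was the most abundant member. RCAS(A) replicates 2, 3 and 4 held 253, 239 and 243 CPM, a narrow range. RCAS(A)-Wnt9a replicates 1, 2 and 3 held 475, 415 and 505 CPM, of which replicate 2 was the lowest. The means were 245 ± 7.33 and 465 ± 46.0 CPM (SD, n = 3 each), and the log2 fold change was 0.92 (SE 0.07). ALCAM took 76.7% of the increase of 286 CPM in the summed mean level of the 4 genes.

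MPZL2 (ENSGALG00000007412, chromosome 24, 5465067 to 5470649) showed the smallest log2 fold change of the 4 genes and the smallest SD of log2 CPM pooled over both groups. Its level was 78.5, 88.2 and 83.3 CPM in RCAS(A) replicates 2, 3 and 4, and 110, 113 and 117 CPM in RCAS(A)-Wnt9a replicates 1, 2 and 3. The lowest RCAS(A)-Wnt9a library exceeded the highest RCAS(A) library 1.25-fold. Group means were 83.3 ± 4.87 and 113 ± 3.42 CPM (SD, n = 3 each), giving a log2 fold change of 0.45 (SE 0.06).

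**Figure D1:**
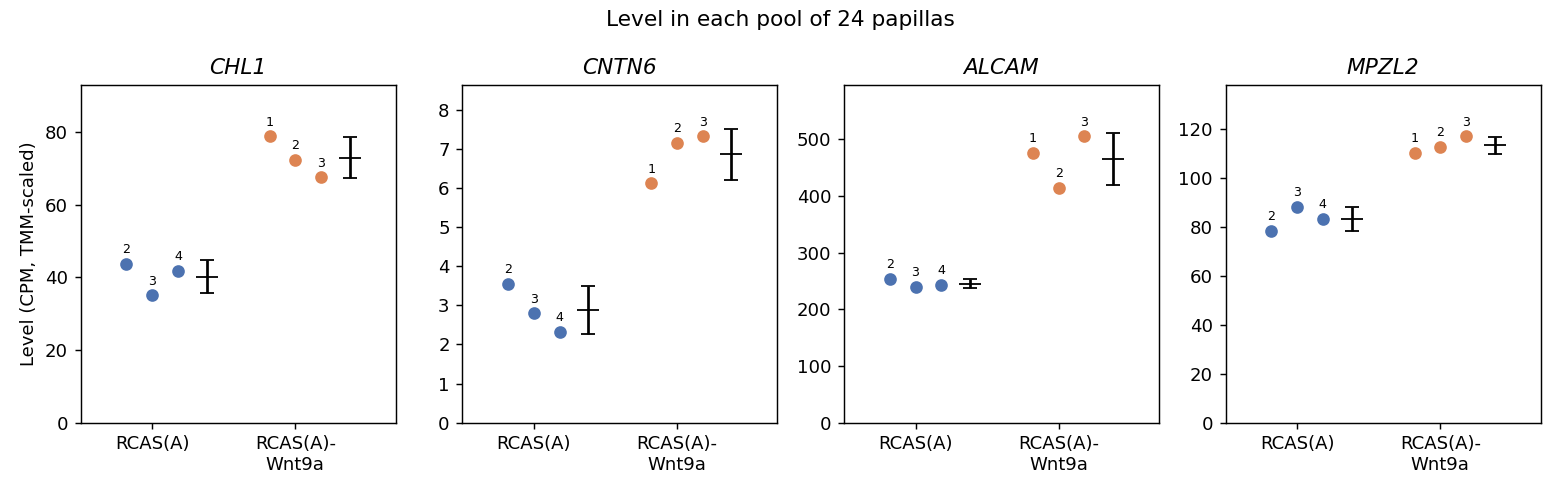
Level of CHL1, CNTN6, ALCAM and MPZL2 in CPM (TMM-scaled) in each library, with the replicate number above each point and the group mean ± SD (n = 3) in black beside the points. In each panel the 3 RCAS(A)-Wnt9a libraries lie above the 3 RCAS(A) libraries, with the narrowest relative gap for MPZL2 (1.25-fold between the closest libraries).

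The 4 profiles were alike in direction but not in the ordering of replicates. RCAS(A)-Wnt9a replicate 1, which held the most WNT9A (1340 CPM against 539 and 427 CPM in replicates 2 and 3), had the highest CHL1 level of the 3 but the lowest CNTN6 and MPZL2 levels. The highest levels of CNTN6, ALCAM and MPZL2 were in replicate 3, where WNT9A was lowest of the 3. Some of these orderings rest on close values, as for CNTN6 at 7.17 and 7.32 CPM in RCAS(A)-Wnt9a replicates 2 and 3. For MPZL2 the 3 levels were 110, 113 and 117 CPM. A relation to the level of WNT9A was not tested. Across the 6 libraries, log2 CPM centred on each gene's mean differed least between CHL1 and ALCAM, with a root mean square difference of 0.14, and most between CNTN6 and MPZL2, with 0.45. Because this measure keeps the difference between the groups, it in large part restates the fold changes and is no separate result. The ratio of ALCAM to CHL1 within a library, in CPM, was 5.78 to 6.83 for RCAS(A) and 5.72 to 7.47 for RCAS(A)-Wnt9a, so the ranges overlapped. The ratio of ALCAM to MPZL2 went from 2.71 to 3.23 in the RCAS(A) libraries and from 3.67 to 4.31 in the RCAS(A)-Wnt9a libraries, without overlap. That shift restates the larger fold change of ALCAM.

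The scatter between replicates, on which the authors' adjusted p and so the choice of the members also depends, is given as a description. Pooled over both groups, the SD of log2 CPM was 0.14 for CHL1, 0.23 for CNTN6, 0.11 for ALCAM and 0.07 for MPZL2. Compared with genes within 0.5 log2 CPM of its own level, CHL1 scattered more than 87.7% of 2362 genes and ALCAM more than 78.6% of 505. CNTN6 scattered more than 59.5% of 777 such genes, and MPZL2 more than 37.7% of 2101.

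The authors' pooled FPKM, which are per length and so allow levels to be compared between genes, put the members in the order ALCAM, MPZL2, CHL1 and CNTN6 in both groups. These are the authors' single values per group with their own bounds, and no value per replicate is given. Whether the bounds include the spread between replicates is not known here. For RCAS(A) they were 59.3 FPKM (bounds 49.4 to 69.3) for ALCAM, 26.1 (21.4 to 30.8) for MPZL2, 6.03 (4.87 to 7.18) for CHL1 and 0.60 (0.32 to 0.88) for CNTN6. No neighbours in that order overlapped in their bounds. For RCAS(A)-Wnt9a the values were 114 FPKM (94.1 to 133) for ALCAM, 34.7 (28.6 to 40.7) for MPZL2, 10.96 (9.02 to 12.9) for CHL1 and 1.40 (0.91 to 1.89) for CNTN6, again without overlap between neighbours. ALCAM per length stood 98.9-fold above CNTN6 in the RCAS(A) group and 81.1-fold in the RCAS(A)-Wnt9a group. Of the summed FPKM of the 4 genes, ALCAM made up 64.5% in the control group and 70.7% in the RCAS(A)-Wnt9a group, while the share of MPZL2 went from 28.3% to 21.6%. Between the groups the authors' bounds were apart for ALCAM, CHL1 and CNTN6 and overlapped for MPZL2. The same contrast chose the members, so nothing is read from this on their rise.

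**Figure D2:**
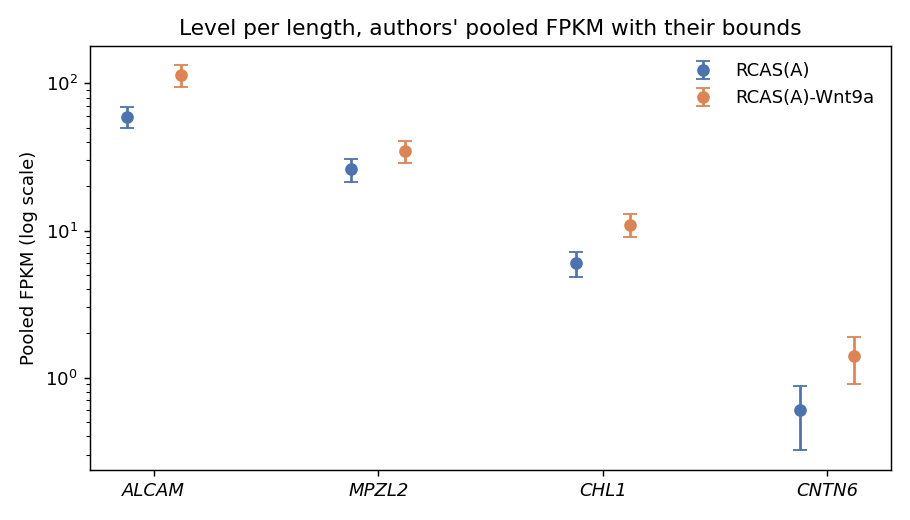
The authors' pooled FPKM of ALCAM, MPZL2, CHL1 and CNTN6 for each group on a log axis, with the authors' lower and upper bounds as bars. ALCAM is the highest in both groups (59.3 and 114 FPKM), CNTN6 the lowest (0.60 and 1.40 FPKM), and the bounds of the groups overlap for MPZL2.

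Among all 12133 tested genes, ordered by log2 fold change, CNTN6 stood at place 28 from the top, ALCAM at 61, CHL1 at 75 and MPZL2 at 351. In average level over the 6 libraries, ALCAM exceeded 96.5% of tested genes, MPZL2 77.4%, CHL1 61.8% and CNTN6 17.6%, on a scale of CPM that is not corrected for length.

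**Figure D3:**
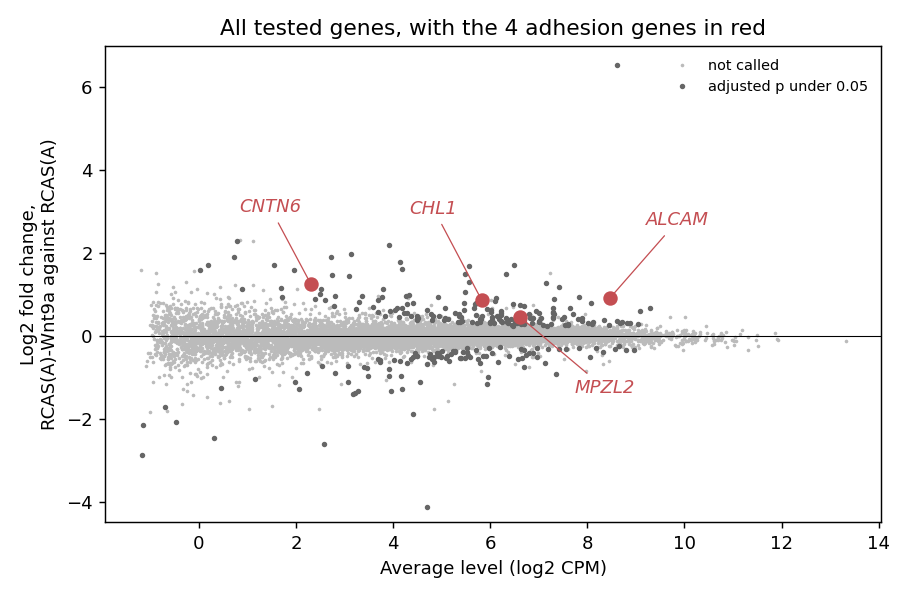
Log2 fold change of RCAS(A)-Wnt9a against RCAS(A) against average log2 CPM for all 12133 tested genes, with genes at an adjusted p under 0.05 in dark grey and the 4 adhesion genes in red. The members lie above 0 across a wide span of levels, from CNTN6 at a log2 CPM of 2.31 to ALCAM at 8.47.

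The rule that brought these genes together rests on the authors' adjusted p. The authors' deposited table from edgeR lists 500 genes with adjusted p up to 0.0497 and that from DESeq2 lists 437 with values up to 0.0488. Among the members, the least extreme adjusted p in the authors' deposited tables were 1.79e-07 for MPZL2 in edgeR and 9.82e-06 for CNTN6 in DESeq2. These values chose the members and so add no support for their rise. In the authors' deposited table from DESeq2 the log2 fold changes were smaller, at 0.82 for ALCAM, 0.71 for CHL1, 0.57 for CNTN6 and 0.40 for MPZL2. In that table CNTN6 therefore ranks below ALCAM and CHL1, whereas the authors' deposited table from edgeR puts it first of the 4 at 1.24. A DESeq2 fit made here, without a prior on the fold changes, also put CNTN6 first, at 1.25. That fit gave 0.93 for ALCAM, 0.86 for CHL1 and 0.45 for MPZL2. For WNT9A the authors' deposited tables hold 0.41 from DESeq2 and 6.52 from edgeR.

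CHL1 and CNTN6 are neighbours on chromosome 12, with 256 kb between them and no other gene of the FPKM table wholly in that gap. CNTN3 (ENSGALG00000007862, 16877531 to 16970255), another lipid-anchored contactin, lies 249 kb before CHL1. Unlike both, CNTN3 fell, from 36.9 ± 0.34 to 26.1 ± 3.75 CPM (SD, n = 3 each), a difference of -0.50 on the log2 scale with an SE of 0.10 (edgeR adjusted p = 0.0161). Its RCAS(A)-Wnt9a libraries were all below its RCAS(A) libraries. The adjusted p of CNTN3 rose to 0.0800, 0.0638 and 0.0646 without RCAS(A) replicate 2, 3 or 4, and lay between 0.000921 and 0.0800 over 13 alternatives. The next tested gene beyond CNTN6, ENSGALG00000008263, begins 183 kb further on and held 150 ± 6.93 and 148 ± 7.28 CPM (SD, n = 3 each), or a difference of -0.02 on the log2 scale with an SE of 0.06 (edgeR adjusted p = 0.960). The files give that gene no symbol. In RefSeq's GRCg7b assembly the protein-coding order is CNTN3, CHL1, CNTN6 and CNTN4, and CNTN4 could not be paired with a measured gene.

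Up to 3 tested genes on each side of every member were read in the same way, since their position and not their response chose them. Of these 18 genes, 2 rose, 1 fell and 15 missed the threshold, beside 2.27% of all tested genes called in either direction. Their median log2 fold change was 0.07. In 7 of the 18 genes every RCAS(A)-Wnt9a library was above every RCAS(A) library, beside 9.82% of all tested genes. Most of these 7 lay around ALCAM, the rest around MPZL2, and none around CHL1 or CNTN6. Those around MPZL2 were the gene listed as CD3E and ENSGALG00000024072. The latter was scarce, at 0.36 ± 0.19 and 0.61 ± 0.02 CPM (SD, n = 3 each). ZPLD1, a zona pellucida domain gene and the tested gene next to ALCAM at a distance of 901 kb, rose from 9.27 ± 1.92 to 17.7 ± 0.46 CPM (SD, n = 3 each; log2 fold change 0.94, SE 0.14, edgeR adjusted p = 0.00277). On the other side of ALCAM, at 26.3 kb, an unnamed gene differed by 0.26 on the log2 scale with an SE of 0.10 (edgeR adjusted p = 0.244). Both ZPLD1 and this unnamed gene were among those higher without overlap.

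The gene listed as CD3E, which encodes a chain of the T-cell receptor complex, begins only 0.95 kb beyond MPZL2. It rose from 154 ± 13.9 to 244 ± 33.2 CPM (SD, n = 3 each), or by 0.67 on the log2 scale with an SE of 0.10 (edgeR adjusted p = 0.00547). That level is above the level of MPZL2 itself in both groups, in CPM not corrected for length. The gene on the other side of MPZL2, 0.18 kb away, held 225 ± 18.1 and 244 ± 15.7 CPM (SD, n = 3 each) and missed the threshold (log2 fold change 0.12, SE 0.07, edgeR adjusted p = 0.553). Reads near the ends of such close neighbours cannot be assigned with certainty, as the sources used here do not give the counting tool or its strand setting.

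**Figure D4:**
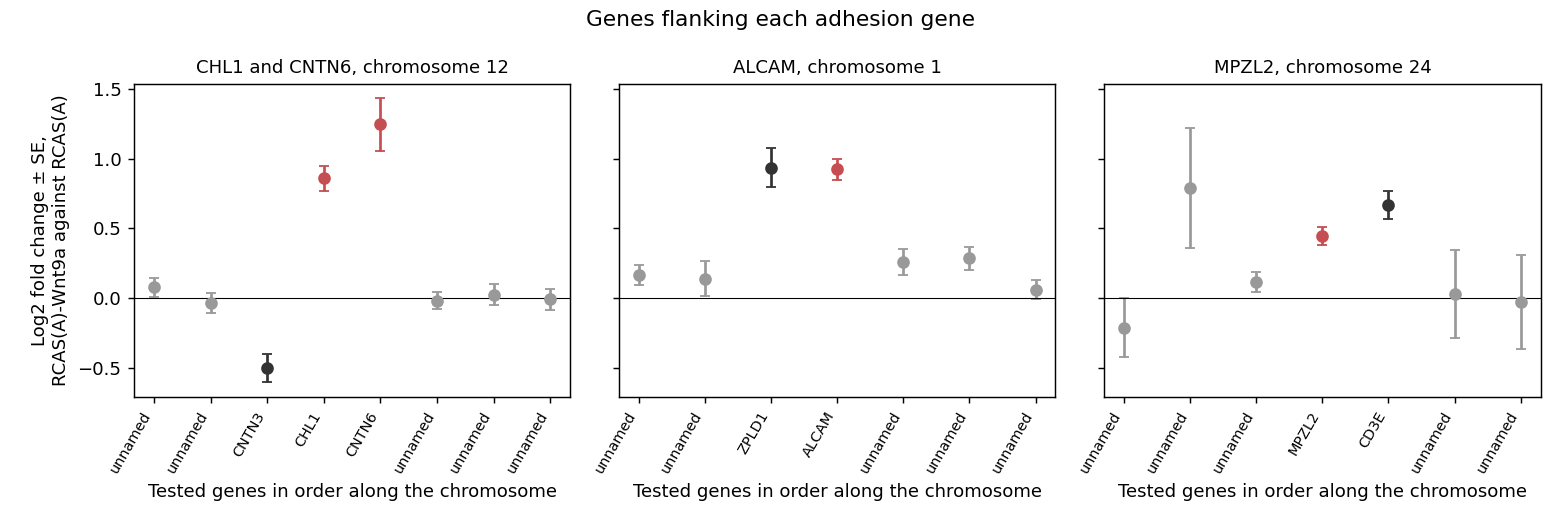
Log2 fold change ± SE of the tested genes around CHL1 and CNTN6, ALCAM and MPZL2, in their order along the chromosome and not to scale, with the adhesion genes in red, other genes at an adjusted p under 0.05 in dark grey and the rest in light grey. CNTN3 lies below 0 beside CHL1 and CNTN6, ZPLD1 above 0 beside ALCAM, and CD3E above 0 beside MPZL2.

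Other genes of the superfamily were read through a list of 84 symbols. Besides the 4 members, 4 of them could be paired with a measured gene, because names come only from the authors' tables of changed genes. All 4 were called here, 3 higher and 1 lower. As that source lists only genes changed on the same contrast, this is no evidence on the family. VCAM1, a ligand of leukocyte integrins, was at 4.18 ± 0.72 and 7.64 ± 1.64 CPM (SD, n = 3 each), a log2 fold change of 0.87 (SE 0.19). Its call was lost without RCAS(A) replicate 2 or 4 or without RCAS(A)-Wnt9a replicate 2 (edgeR adjusted p = 0.129, 0.150 and 0.131). MXRA8, an immunoglobulin-domain protein of the matrix-remodelling group, was at 38.2 ± 5.26 and 64.5 ± 4.42 CPM (log2 fold change 0.76, SE 0.09). BOC, a hedgehog co-receptor, was at 113 ± 3.60 and 143 ± 6.53 CPM (log2 fold change 0.34, SE 0.06). CNTN3 was the single lower one.

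**Figure D5:**
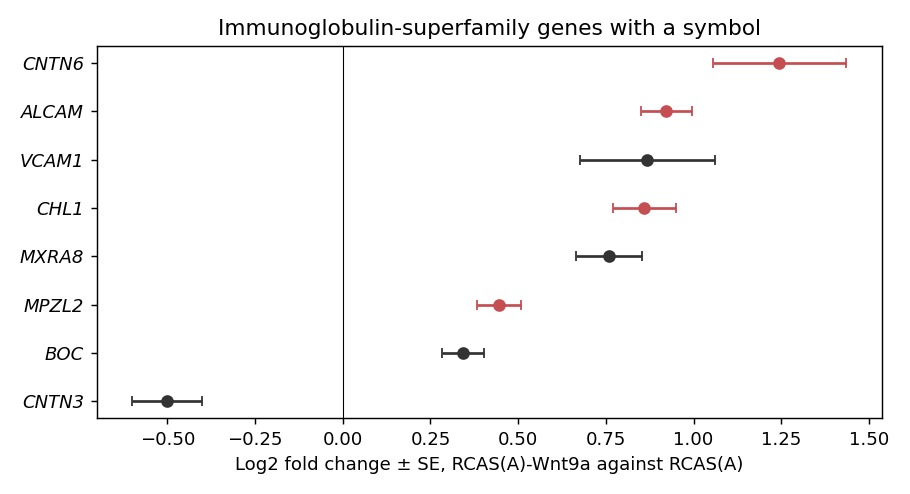
Log2 fold change ± SE of the 8 immunoglobulin-superfamily genes with a symbol, the members in red and the others in dark grey. CNTN6 is the highest at 1.24 and CNTN3 the single gene below 0, at -0.50.

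Adhesion genes of other families and guidance genes were read with the same limit on names, so their counts describe the named genes and not the families. Of 32 cadherin and integrin symbols, 6 had a measured gene: 1 rose, 2 fell and the remaining 3 were not called. Of those 3, CDH8 went from 52.8 ± 5.69 to 23.6 ± 7.16 CPM (SD, n = 3 each; log2 fold change -1.17, SE 0.23, edgeR adjusted p = 0.0730). CDH8 passed in 6 of 13 alternatives. PCDH15 and CELSR1 went the other way, with log2 fold changes of 0.54 and 0.28 (edgeR adjusted p = 0.0702 and 0.103). ITGA8 and ITGA6, integrin chains, had log2 fold changes of -0.91 and -0.40 (edgeR adjusted p = 0.00154 and 0.0116). The call of ITGA6 was lost without RCAS(A) replicate 2 or 3 or RCAS(A)-Wnt9a replicate 2 (adjusted p = 0.0572, 0.0533 and 0.0629). CDH19, a cadherin gene and the single one called higher, went from 10.2 ± 0.50 to 15.2 ± 2.60 CPM (SD, n = 3 each). Its call was kept in just 1 of the 6 fits that left out a library, that without RCAS(A)-Wnt9a replicate 3 (highest edgeR adjusted p = 0.181). Over all 13 alternatives it passed in 4, and it was also lost with limma-voom, library size alone, the CPM filter and the replicate block (adjusted p = 0.0662, 0.0725, 0.0511 and 0.173). In a list of 22 guidance, receptor and signalling genes that are studied with these families, 5 had a measured gene, of which 4 fell and 1 missed the threshold. SEMA3D, a secreted semaphorin, and NTRK2, a neurotrophin receptor, had the smallest p, with log2 fold changes of -1.003 and -0.49 (edgeR adjusted p = 0.00279 and 0.00601). The calls of HES5 and NRP2 in that list were lost without RCAS(A) replicate 2 or 4 or without RCAS(A)-Wnt9a replicate 2 (highest edgeR adjusted p = 0.167 and 0.0946), and that of HES5 also without RCAS(A)-Wnt9a replicate 3 or with library size alone as scaling.

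Genes with profiles most like the members were sought among 457 named genes with an average log2 CPM of at least 1, by the root mean square difference of centred log2 CPM over the 6 libraries. These names come only from the authors' tables of changed genes, and the centring keeps the difference between the groups that chose the members. A like fold change alone therefore brings genes near, and nothing is read from nearness on shared regulation. Nearest to CHL1 were LZTS1, a leucine zipper protein gene, at 0.07 and TMEM132D, a transmembrane protein gene, at 0.08. ALCAM was also nearest to LZTS1, at 0.11, followed by LRRC45, a centrosome linker gene, at 0.12. For CNTN6 they were HS3ST1, a heparan sulfate sulfotransferase gene, at 0.14 and WISP1, of the CCN family, at 0.19. MPZL2 was nearest to UST, a uronyl sulfotransferase gene, at 0.05 and to PDGFA, a growth factor gene, at 0.05. LZTS1 held 10.1, 7.65 and 9.38 CPM in RCAS(A) replicates 2, 3 and 4 and 17.5, 15.5 and 16.9 CPM in RCAS(A)-Wnt9a replicates 1, 2 and 3, so its lowest library was also RCAS(A) replicate 3.

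Markers of the cell types a dissection could hold were read with the same limit on names. Only markers in the authors' tables of changed genes had a name. That these markers differed between the groups follows from that source, and nothing is read from it. The 2 named ganglion neuron markers of 18 listed, ISL1 and NTRK2, had a summed level of 225 to 261 CPM in the RCAS(A) libraries and 165 to 179 CPM in the RCAS(A)-Wnt9a libraries. ISL1, with 146 and 103 mean CPM, supplied most of that sum and is also 1 of the papilla markers, so the ganglion and papilla sums share it. Glia and neural crest had 1 named marker of 10, CDH19, at 9.62 to 10.5 and 12.3 to 17.2 CPM. For periotic mesenchyme, 6 of 16 markers were named, with sums of 815 to 868 and 947 to 1114 CPM. Much of each sum lay in COL1A2, at 497 and 607 mean CPM. COL1A2, TBX18 and ACAN missed the threshold (edgeR adjusted p = 0.114, 0.0796 and 0.155). Of the others, 2 (PRRX1 and HAPLN1) rose while LUM fell. The call of LUM (highest edgeR adjusted p = 0.177) was lost in 5 of the 6 fits leaving out a library, all but that without RCAS(A)-Wnt9a replicate 1. It was also lost with library size alone. Endothelium and blood had 2 named markers of 14, FLT1 and TFRC, with sums of 149 to 155 and 176 to 187 CPM. TFRC, at 132.5 and 157 mean CPM, supplied most of these sums. FLT1 and TFRC were called higher, but the calls passed in just 6 and 5 of 13 alternatives (highest edgeR adjusted p = 0.164 and 0.171). The 8 named papilla markers of 19 moved both ways: FGF3, LMX1A and PAX2 rose (log2 fold changes 1.68, 0.77 and 0.34), TECTB, SOX2 and ISL1 fell (-4.14, -0.49 and -0.51), and OTOA and PROX1 missed the threshold. Their sum was 798 to 850 CPM with RCAS(A) and 646 to 757 CPM with RCAS(A)-Wnt9a, and much of the lower sum lay in OTOA, at 365 and 264 mean CPM (edgeR adjusted p = 0.0658). The calls of PAX2, TECTB and SOX2 passed in 5, 9 and 11 of 13 alternatives (highest edgeR adjusted p = 0.221, 0.110 and 0.0630). Each was lost without at least 1 library. That of PAX2 was also lost with limma-voom, library size alone and the replicate block (adjusted p = 0.0541, 0.0698 and 0.145). No named marker was at 0 in any library, but only genes with enough counts to be tested were read. TECTB was at just 0.72 CPM in RCAS(A)-Wnt9a replicate 1. The part of cell composition in the levels of the 4 adhesion genes was not tested.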

How the data were processed

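RNA was sequenced from 6 pools of basilar papillas with a stranded Illumina kit, per the labels' protocols, and the sample titles gave each pool's group and number. Tools named in the submitters' processing notes are TopHat2, DESeq, DESeq2 and edgeR, with the galGal4 build. How reads were counted, on which strand and with which annotation was not given in the sources used here. The authors deposited counts per Ensembl gene, a DESeq2 table with baseMean signal, log2 fold changes, a Wald score and p-values, an edgeR table with log2 fold changes, log2 CPM and p-values, and pooled FPKM per group with confidence bounds, per the file headers. In the edgeR table each name is shifted left by 1 column.

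Counts were filtered with filterByExpr, scaled by TMM and fitted over all genes with edgeR 4.0.16 (glmQLFit, robust; glmQLFTest, two-sided, adjusted p under 0.05) in R 4.3.3. The SE is the log2 fold change divided by the square root of F. The fit was also run on counts simulated from its own dispersions, which cannot show that it suits these libraries. Symbols came from the authors' tables (493 of 522 genes), updated where possible to RefSeq GRCg7b, 23 by accession and 10 by synonym. No replicate pair agreed within counting noise. Members and lists were chosen with earlier results of these data known. The text names the members, WNT9A, every named gene of the superfamily list, examples from the other lists, flanking genes that were called or are nearest, and the 2 most alike profiles per member. The papilla markers other than FGF3 and LMX1A, and CDH8, PCDH15, CELSR1, CDH19, LUM, COL1A2, TBX18, ACAN, HES5 and NRP2, were named after their values were seen. Alternatives were DESeq2 1.42.0, limma-voom 3.58.1, other scalings and filters, a replicate block and leaving out each library.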

Additional observations from a re-analysis of the deposited data

How the results depend on the processing

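The log2 fold changes of the 4 genes kept their sign and moved by less than 1 SD between replicates under all 13 alternatives. With 1 library left out they lay between 0.77 and 0.93 for CHL1, 1.12 and 1.42 for CNTN6, 0.859 and 0.998 for ALCAM, and 0.40 and 0.49 for MPZL2. That their sign held follows from libraries that do not overlap. The number of flanking genes called was 3 in the 7 alternatives that change the tool, scaling, filter or block and 2 to 3 with 1 library left out. The number of genes called among all tested was 276, and it was 435 with DESeq2, 506 with the replicate block and 146 to 294 with 1 library left out, lowest without RCAS(A) replicates 4 and 2 (146 and 148). The cause was not tested. The titles share only numbers 2 and 3, whose deviations correlated at -0.01 and 0.19, which are too few pairs to settle a pairing. The block fit used those 4 libraries only and gave CHL1 0.84, CNTN6 1.197, ALCAM 0.90 and MPZL2 0.47. CNTN6 rests on 47 to 161 counts per library, which limits its precision more than that of the other members.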
